A study of Rattus norvegicus with 12 samples.

Results

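The 37 genes that the count files place on the mitochondrial chromosome were examined in the retina of the Royal College of Surgeons (RCS) rat at postnatal day 21 (p21) and p60, where they were 37 of 32883 genes counted. All genes listed on that chromosome were taken, by their position alone. They comprised 13 protein-coding, 2 ribosomal RNA (rRNA) and 22 transfer RNA (tRNA) genes, with 28 on the plus strand and 9 on the minus strand. The files give identifiers and positions without names, so that each gene was named from its order, length and strand along the known vertebrate mitochondrial map, and all 37 strands matched that map. The last annotated base was 15415, on the Rnor_6.0 build named in the submitters' processing notes.

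RCS rats lack functional Mertk, the receptor with which the retinal pigment epithelium engulfs shed photoreceptor outer segments, and their photoreceptors degenerate after birth. Whole retinas were sequenced in 4 groups of 3 libraries without any treatment: p21 and p60 retinas of the immunocompetent line, labelled WT with the genotype RCS-p+, and p21 and p60 retinas of the athymic line, with the genotype RCS-p+/Foxn1mu. Both lines carry the RCS disease, no retina without it was included, and therefore age and degeneration cannot be told apart. The 6 WT libraries are labelled male and the 6 athymic libraries female, and total counts ranged from 13852516 to 16725355 per library.

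Libraries are named here by the number in their label (1 to 6 at p21 and 19 to 24 at p60), and several stood apart. Genes of the Y chromosome summed to between 229 and 323 CPM (counts scaled to a common library total) in the 6 libraries labelled male. Among the libraries labelled female, Y-chromosome genes reached 328 CPM in library 4, 316 CPM in library 5 and 269 CPM in library 22, against 8.79, 23.2 and 16.1 CPM in libraries 6, 23 and 24. Libraries 4, 19 and 24 held 38, 64 and 45 genes at 8-fold or more of the median of their age and at 5 CPM or more, where the other libraries held 0 to 17. The change with age is given below both with these libraries and without them.

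The mitochondrial genome is a small circle that is transcribed from both strands into long precursor RNAs, and excision of the tRNAs that lie between the other genes releases the individual messengers and rRNAs. Its 13 proteins are core subunits of oxidative phosphorylation: 7 belong to complex I, which oxidizes NADH, 1 to complex III, which passes electrons to cytochrome c, 3 to complex IV, which reduces oxygen, and 2 to the membrane part of ATP synthase. Photoreceptors pack mitochondria into the ellipsoid of the inner segment and are among the heaviest users of oxygen in the body. Mature mitochondrial messengers mostly carry short poly(A) tails, whereas tRNAs and rRNAs are captured poorly by the oligo(dT) enrichment used for these libraries.

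Mitochondrial genes took 4.43, 4.32 and 3.53% of all counts in p21 WT libraries 1, 2 and 3, and 4.38, 4.18 and 3.86% in p21 athymic libraries 4, 5 and 6. At p60 they took 5.02, 4.81 and 5.27% in WT libraries 19, 20 and 21, and 4.97, 5.14 and 4.88% in athymic libraries 22, 23 and 24. Every p60 library lay above every p21 library, where the mean share was 4.12% ± 0.35 (SD, n = 6) at p21 and 5.02% ± 0.17 at p60. The difference depended on the denominator: the log2 ratio of p60 over p21 was 0.28 against all counts but 0.094 against the library size scaled by the trimmed mean of M-values (TMM), where the ages overlapped (3.70 to 4.89% at p21, 4.50 to 4.96% at p60). Protein-coding genes made up 96.3% of mitochondrial counts at p21 and 95.8% at p60, rRNAs 3.48 and 4.05%, and tRNAs 0.178 and 0.175%.

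Levels per gene length (CPM per kilobase of gene, on total counts) spanned more than an order of magnitude among the protein-coding genes. Mt-Co1, the catalytic subunit of complex IV, was highest at 11319 ± 911 (mean ± SD over 12 libraries), with a range of 9392 to 12537 that overlapped no other mitochondrial gene. It ranked first or second of all 32883 genes by raw count in every library, and 5 mitochondrial genes were among the 10 most counted genes in each p21 library and 6 or 7 in each p60 library. Mt-Co2, which carries the copper center that accepts electrons from cytochrome c, followed at 6387 ± 635 CPM per kilobase. Mt-Atp6, the proton channel subunit of ATP synthase, was at 6274 ± 805 and Mt-Co3, the third complex IV subunit, at 6075 ± 850, so that these 3 neighbors were not separated beyond their spread.

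Mt-Cyb, the cytochrome b of complex III, was at 4310 ± 717 and Mt-Atp8, the small ATP synthase subunit, at 3474 ± 478 CPM per kilobase, and these also overlapped. The complex I genes, which encode proton-pumping membrane subunits, were lower. Mt-Nd2 (2111 ± 585) and Mt-Nd1 (2105 ± 468) were nearly equal, Mt-Nd4l was at 1218 ± 256, and Mt-Nd5 (885 ± 162), Mt-Nd6 (777 ± 198) and Mt-Nd3 (747 ± 114) overlapped one another. Mt-Nd4 was the lowest of the 13 at 351 ± 114 CPM per kilobase, although it shares 7 bases and a bicistronic messenger with Mt-Nd4l. The rRNAs, Mt-Rnr2 (16S, large subunit) at 714 ± 124 and Mt-Rnr1 (12S, small subunit) at 634 ± 165, lay below most of the messengers in these poly(A)-selected libraries.

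**Figure D1:**
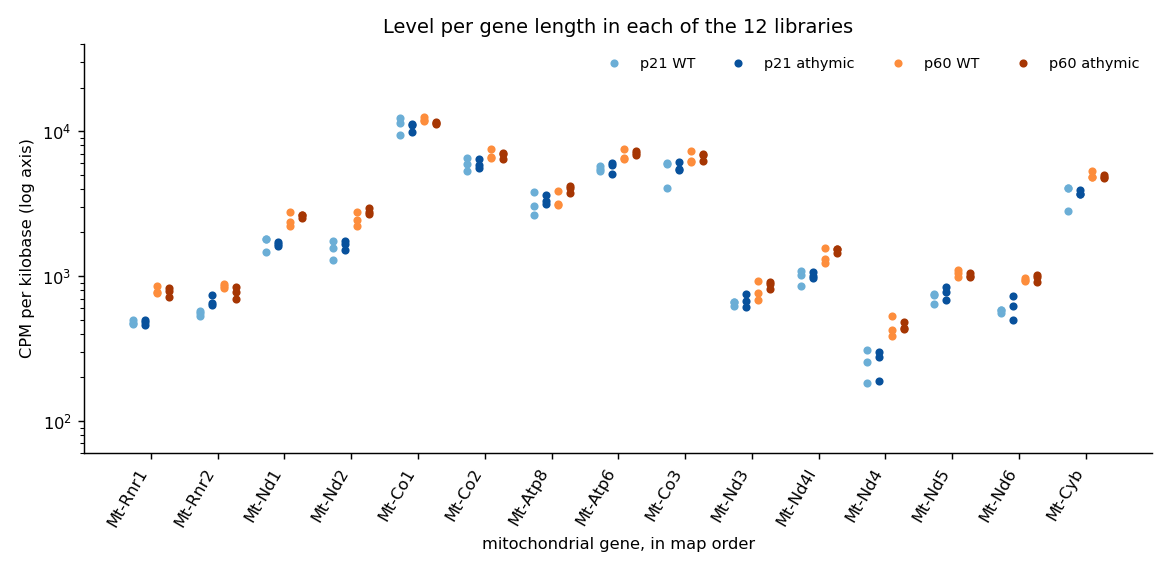
Level of the 13 protein-coding and 2 rRNA genes in each of the 12 libraries, as CPM per kilobase of gene on total counts (log axis), in map order. Each point is 1 library, colored by group. Mt-Co1 sits highest (9392 to 12537) and Mt-Nd4 lowest (184 to 532).

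To determine how the mitochondrial genes changed with age in these degenerating retinas, p60 was compared to p21 over all 12 libraries, with the line as a covariate. Genes of complex I and Mt-Rnr1 rose, where 6 of the 7 complex I genes increased by 1.22- to 1.56-fold, while none of the 3 complex IV genes passed the test. In this comparison 62.0% of all 16069 tested genes passed, with 31.7% higher and 30.3% lower at p60 (edgeR quasi-likelihood F test, Benjamini-Hochberg adjusted p under 0.05). Of the 37 mitochondrial genes, 23 had enough counts to be tested, where 12 were higher, 1 was lower and 10 did not pass. By role, 6 of 7 genes of complex I, 1 of 1 of complex III, 0 of 3 of complex IV, 1 of 2 of ATP synthase, 2 of 2 rRNAs and 2 of 8 tested tRNAs were higher, and 1 tRNA was lower. No complex IV gene passed DESeq2 or had an unadjusted p under 0.05 either.

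The median log2 fold change of the 23 tested genes was 0.22, against 0.015 over all tested genes. On total counts without TMM scaling the median of all genes moved to 0.20 and that of the mitochondrial genes to 0.41, 17 mitochondrial genes were called higher and 0 lower (edgeR), and 45.8% of all tested genes were called higher. A change of scaling moves all genes by nearly the same amount by construction, and the sign of small changes, such as those of Mt-Co1 and Mt-Atp8, depended on the scaling. In bulk retina, fewer cells of a type and less RNA per cell cannot be told apart.

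**Figure D2:**
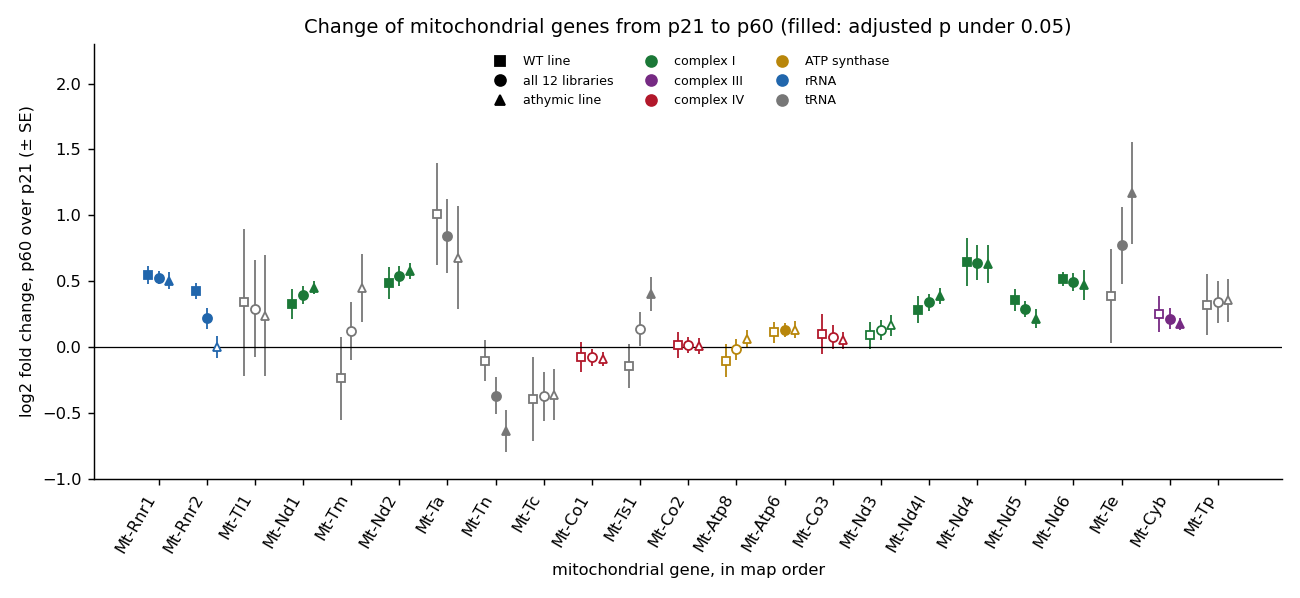
Log2 fold change of p60 over p21 (± SE) for the 23 tested mitochondrial genes in map order, over all 12 libraries (circles), in the WT line (squares) and in the athymic line (triangles), where filled symbols passed an adjusted p of 0.05. Complex I genes other than Mt-Nd3 sit between 0.29 and 0.64 over all libraries, and the 3 complex IV genes between -0.08 and 0.08.

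Mt-Nd4 (ENSRNOG00000029707, MT, bases 10160 to 11537, plus strand) encodes a proton-pumping subunit in the membrane arm of complex I and had the largest fold change of the protein-coding genes. Its TMM-scaled CPM was 389, 456 and 265 in p21 WT libraries and 443, 402 and 277 in p21 athymic libraries. At p60 it was 548, 501 and 691 in WT and 553, 623 and 567 in athymic libraries, so that the ages did not overlap, although library 3 at p21 and library 21 at p60 lay at the extremes. The increase was 1.56-fold (log2 0.64, SE 0.13, adjusted p = 8.12e-04 by edgeR).

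Mt-Nd2 (ENSRNOG00000031033, bases 3904 to 4942, plus strand), another pumping subunit, was at 1784, 1933 and 1413 scaled CPM in p21 WT libraries and at 1943, 1829 and 1685 in p21 athymic libraries. At p60 it was at 2380.2, 2140.1 and 2693 in WT and at 2622, 2868 and 2686 in athymic libraries. All p60 libraries were above all p21 libraries, and the increase was 1.45-fold (log2 0.54, SE 0.075, adjusted p = 2.65e-05 by edgeR). As a ratio within the genome that needs no library scaling, Mt-Nd2 counts rose from a mean of 9.84% of Mt-Co1 counts at p21 to 15.1% at p60, without overlap.

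Mt-Nd1 (ENSRNOG00000030644, bases 2740 to 3694, plus strand) forms the part of the membrane arm next to the ubiquinone site and ranged from 1468 to 1913 scaled CPM at p21 (median 1722) and from 1988 to 2478 at p60 (median 2301). Its increase was 1.31-fold (log2 0.39, SE 0.068, adjusted p = 1.86e-04 by edgeR), and the ages did not overlap. Mt-Nd5 (ENSRNOG00000029971, bases 11736 to 13565, plus strand), the outermost pumping subunit, ranged from 1235 to 1644 at p21 (median 1476) and from 1691 to 1883 at p60 (median 1758), where it was 1.22-fold higher (log2 0.29, SE 0.061, adjusted p = 8.69e-04). Mt-Nd4l (ENSRNOG00000031053, bases 9870 to 10166, plus strand), a small subunit read from the same messenger as Mt-Nd4, ranged from 279 to 336 at p21 (median 319) and from 343 to 438 at p60 (median 415), an increase of 1.27-fold (log2 0.34, SE 0.063, adjusted p = 3.34e-04). Neither of the last pair overlapped between the ages.

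Mt-Nd6 (ENSRNOG00000029042, bases 13543 to 14061) is the only protein-coding gene on the minus strand and encodes a membrane subunit of complex I. It ranged from 277 to 401 scaled CPM at p21 (median 322) and from 443 to 500 at p60 (median 465), without overlap, and was 1.41-fold higher (log2 0.50, SE 0.069, adjusted p = 2.35e-05 by edgeR). It shares 23 bases with Mt-Nd5 on the opposite strand, and no strand setting of the counting is given in the sources used here, so reads from its antisense partner cannot be told apart from its own. Mt-Nd3 (ENSRNOG00000033615, bases 9451 to 9798, plus strand), the remaining complex I gene, ranged from 226 to 280.2 at p21 and from 221 to 304 at p60. Its log2 fold change was 0.13 (95% interval -0.03 to 0.29, adjusted p = 0.135). It passed the test without library 20 (log2 0.18, adjusted p = 0.0319) and on total counts (log2 0.32, adjusted p = 0.00125).

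**Figure D3:**
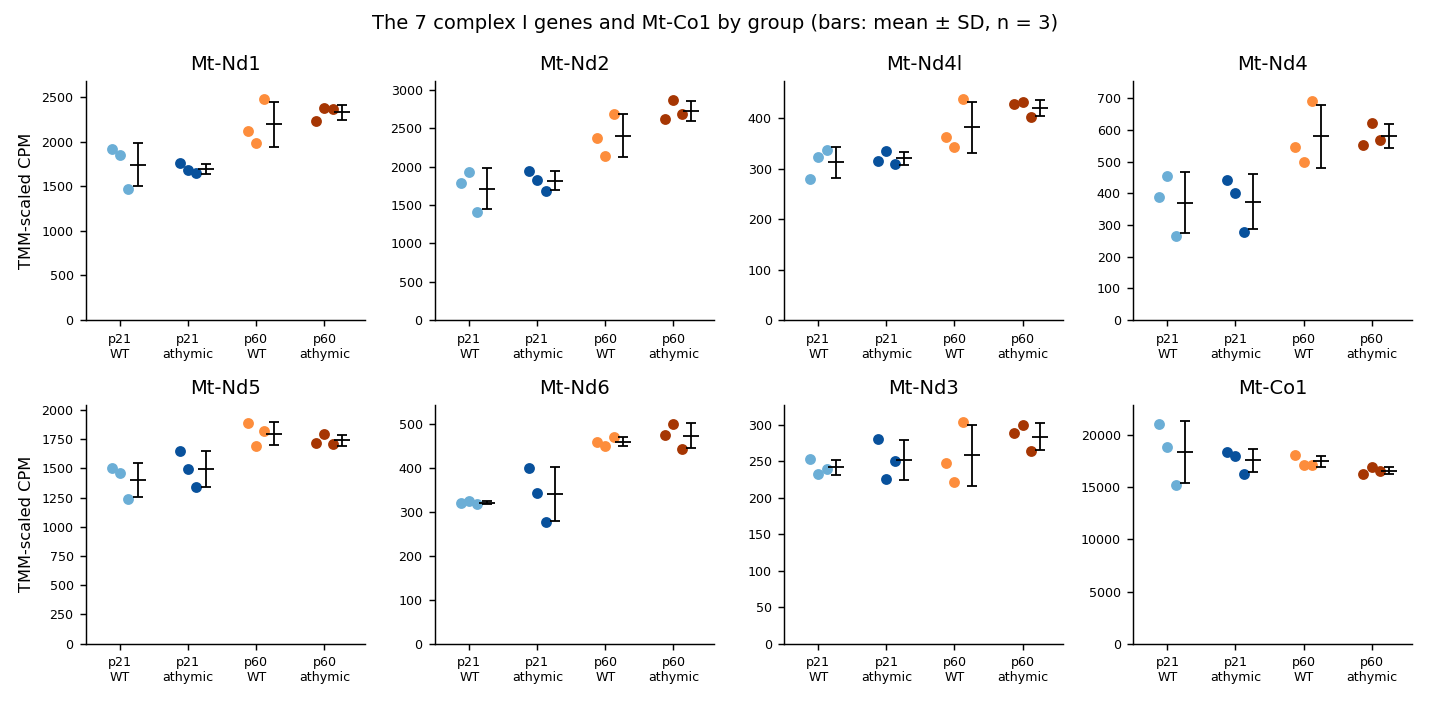
TMM-scaled CPM of the 7 complex I genes and of Mt-Co1 in each library by group, with bars for the mean ± SD (n = 3) and axes that start at 0. For Mt-Nd1, Mt-Nd2, Mt-Nd4l, Mt-Nd4, Mt-Nd5 and Mt-Nd6 every p60 library lies above every p21 library, whereas Mt-Nd3 and Mt-Co1 overlap between the ages.

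Mt-Co1 (ENSRNOG00000034234, bases 5323 to 6867, plus strand) ranged from 15199.8 to 21031 scaled CPM at p21 (median 18219) and from 16240.1 to 18099 at p60 (median 17054), with the p60 values inside the p21 range. Its log2 fold change was -0.08 with TMM (95% interval -0.21 to 0.06, adjusted p = 0.307 by edgeR) and 0.11 on total counts (adjusted p = 0.103), and it was called lower with TMM only when library 3 was left out (log2 -0.13, adjusted p = 0.0191). Mt-Co2 (ENSRNOG00000030371, bases 7006 to 7689) had a log2 fold change of 0.02 (interval -0.12 to 0.15, adjusted p = 0.845) and Mt-Co3 (ENSRNOG00000030700, bases 8599 to 9382) of 0.08 (interval -0.12 to 0.28, adjusted p = 0.476). On total counts both were called higher (adjusted p = 0.00586 and 0.0137).

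Mt-Cyb (ENSRNOG00000031766, bases 14136 to 15278, plus strand) ranged from 3375 to 5082 scaled CPM at p21 (median 4638) and from 5076 to 5684 at p60 (median 5192), where the p60 libraries and the highest p21 library just overlapped. It was called 1.16-fold higher (log2 0.22, SE 0.080, adjusted p = 0.0299 by edgeR), but not without library 5, 21 or 23 (adjusted p = 0.0506 to 0.0687). Mt-Atp6 (ENSRNOG00000031979, bases 7919 to 8599, plus strand) ranged from 3697 to 4396 at p21 and from 4126 to 4796 at p60 and was called 1.09-fold higher (log2 0.13, SE 0.053, adjusted p = 0.0486), but not without library 3, 5, 6, 21, 22 or 23 (adjusted p = 0.0614 to 0.124). This call was also lost with nuclear genes only for scaling (adjusted p = 0.0886), without the line term (0.0501) and as the mean of both age contrasts in a model of 4 groups (0.0558). Mt-Atp8 (ENSRNOG00000033299, bases 7758 to 7961), which shares 43 of its 204 bases with Mt-Atp6 so that reads over the shared bases may be split or dropped, had a log2 fold change of -0.01 with TMM (interval -0.19 to 0.16, adjusted p = 0.886) and 0.17 on total counts (adjusted p = 0.0942).

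Mt-Rnr1 (ENSRNOG00000030478, bases 68 to 1025, plus strand) was at 501, 506 and 466 scaled CPM in p21 WT libraries and at 512, 491 and 469.9 in p21 athymic libraries. At p60 it was at 685, 699 and 770.4 in WT and at 740.0, 713 and 644 in athymic libraries. The ages lay well apart, and the increase was 1.44-fold (log2 0.53, SE 0.046, adjusted p = 2.51e-07 by edgeR).

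Mt-Rnr2 (ENSRNOG00000043866, bases 1094 to 2664, plus strand) encodes the RNA of the large mitochondrial ribosomal subunit, and its values are given by line. In WT it was at 923, 959 and 921 scaled CPM at p21 and at 1295, 1219 and 1255 at p60, without overlap. In athymic retinas it was at 1250.3, 1047 and 1097 at p21 and at 1241, 1148 and 1025 at p60, within 1 common range. Over all libraries it was called higher (log2 0.22, SE 0.077, adjusted p = 0.0247 by edgeR), but not without library 1, 2, 3, 19 or 21, all of them WT (adjusted p = 0.0510 to 0.0633).

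The interaction of age and line for Mt-Rnr2 was -0.42 on the log2 scale (SE 0.11, unadjusted p = 0.00191, adjusted p = 0.207 by edgeR), and DESeq2 called it (adjusted p = 0.00795), where DESeq2 called 0.909% of all 16069 tested genes. The log2 change was 0.43 in WT (adjusted p = 3.02e-04) and 0.00 in athymic retinas (95% interval -0.19 to 0.19, adjusted p = 0.971). The lines differed at p21 by a log2 of 0.28, athymic over WT (adjusted p = 0.268 by edgeR and 0.0157 by DESeq2, which called 0.920% of all 15225 tested genes). The ratio of Mt-Rnr2 to Mt-Rnr1 counts was 1.84, 1.90 and 1.98 in p21 WT libraries and 2.44, 2.13 and 2.33 in p21 athymic libraries. At p60 it was 1.89, 1.74 and 1.63 in WT and 1.68, 1.61 and 1.59 in athymic libraries, so that the athymic libraries were above WT at p21 and overlapped with them at p60.

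**Figure D4:**
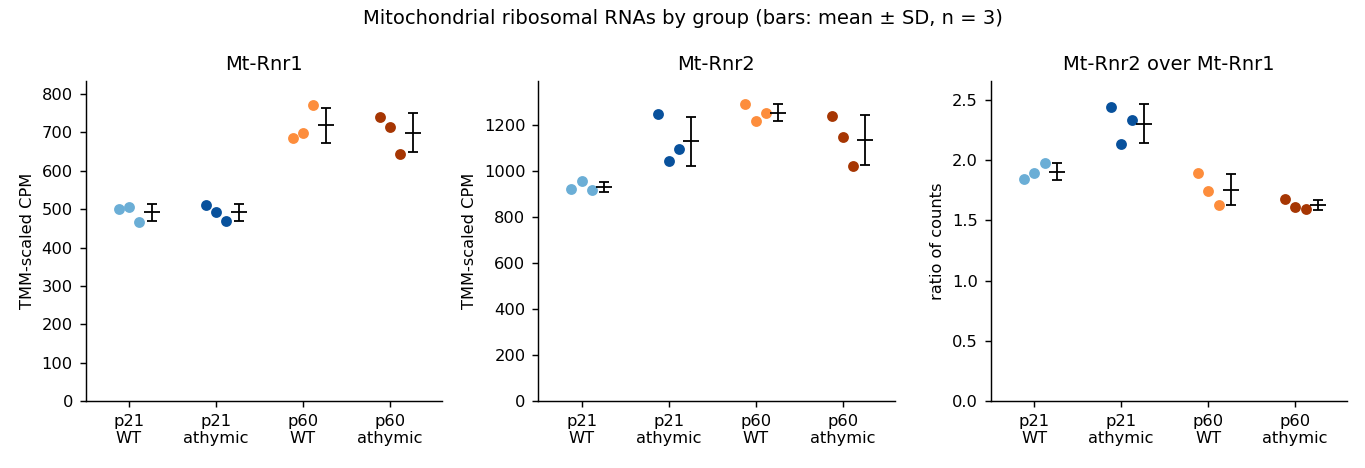
TMM-scaled CPM of Mt-Rnr1 and Mt-Rnr2 and the ratio of their counts in each library by group, with bars for the mean ± SD (n = 3) and axes that start at 0. Mt-Rnr1 separates the ages in both lines, Mt-Rnr2 in the WT line alone, and the ratio is highest in p21 athymic libraries (2.13 to 2.44).

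Of the 22 tRNA genes, 8 passed the filter on low counts, and the other 14 had 0 to 13 counts per library. Among these 8 were 6 of the 8 minus-strand tRNAs but 2 of the 14 plus-strand tRNAs, and the tested minus-strand tRNAs held 13741 counts in all against 522 for the tested plus-strand tRNAs. Mt-Tp, which decodes proline codons (bases 15348 to 15415, minus strand), and Mt-Tn, for asparagine (bases 5081 to 5152, minus strand), were the most abundant with 242 to 690 and 246 to 546 counts per library. Because the strand setting is not given, reads counted on these minus-strand genes cannot be told apart from unprocessed plus-strand transcripts that run through them.

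Mt-Ta, the tRNA for alanine, was called 1.80-fold higher at p60 (log2 0.85, SE 0.28, adjusted p = 0.0172 by edgeR) on 9 to 40 counts per library, but not without library 22 (adjusted p = 0.0516). Mt-Te, for glutamic acid, was called 1.71-fold higher (log2 0.77, SE 0.29, adjusted p = 0.0332) on 7 to 39 counts, but not without library 1, 5, 6, 19, 23 or 24 (adjusted p = 0.0524 to 0.0674). Mt-Tn was the only mitochondrial gene called lower (log2 -0.37, SE 0.14, adjusted p = 0.0329), and this call was lost without library 1, 4, 6, 20, 22, 23 or 24 (adjusted p = 0.0513 to 0.0855) and on total counts, where its log2 fold change was -0.18. Its scaled CPM was 28.7, 21.7 and 18.6 in p21 WT and 34.1, 23.6 and 34.9 in p21 athymic libraries, against 21.9, 19.7 and 22.8 in p60 WT and 21.1, 21.8 and 17.0 in p60 athymic libraries, which separated the ages in the athymic line and not in WT.

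The other 5 tested tRNAs did not pass. Mt-Tp had a log2 fold change of 0.34 (95% interval -0.0013 to 0.69, adjusted p = 0.0776 by edgeR), and it was called higher by DESeq2 (adjusted p = 0.0394) and without library 1, 2 or 4 (adjusted p = 0.0302 to 0.0497). Mt-Tc, for cysteine, was at -0.37 (adjusted p = 0.0989) and was called lower without library 1 (log2 -0.47, adjusted p = 0.0298). Mt-Ts1 (serine), Mt-Tm (methionine) and Mt-Tl1 (leucine) had log2 fold changes of 0.14, 0.12 and 0.29 with adjusted p of 0.382, 0.650 and 0.514. On total counts Mt-Tp (log2 0.53, adjusted p = 0.00791) and Mt-Ts1 (log2 0.32, adjusted p = 0.0444) were called higher.

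Summed over each complex, the scaled CPM of complex I ranged from 5274 to 6782 at p21 (median 6380.1) and from 7333 to 8898 at p60 (median 8377), without overlap, with a ratio of the means of 1.34. Complex III was at 1.16-fold, ATP synthase at 1.08-fold and complex IV at 0.977-fold of p21 means, where the ages overlapped for each of them. These sums are descriptions, since their members share libraries and precursor RNAs.

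Shares of the counts on the 13 protein-coding genes do not depend on library scaling. Complex I took 13.6, 14.8 and 14.8% in p21 WT libraries and 15.1, 14.8 and 14.6% in p21 athymic libraries. At p60 it took 17.8, 17.0 and 18.7% in WT and 18.7, 19.2 and 19.2% in athymic libraries, above every p21 library. Complex IV took 62.8 to 65.7% at p21 (mean 63.4%) and 57.5 to 60.0% at p60 (mean 58.4%), also without overlap. Because the shares add up to a fixed total, a rise in one lowers the others by construction, and the scaled level of complex IV itself was 0.977-fold with overlap between the ages.

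Most of the complex IV difference lay in Mt-Co1, whose share was 44.4, 42.4 and 42.7% in p21 WT and 41.0, 42.3 and 41.2% in p21 athymic libraries. At p60 it was 40.3, 39.9 and 36.1% in WT and 36.5, 36.6 and 37.7% in athymic libraries. The ages were apart in both lines, and the mean fell by 0.16 on the log2 scale. Mt-Co2 and Mt-Co3 took 10.2 and 10.8% at p21 and 9.74 and 10.8% at p60 on average, with overlap. Complex III took 10.6% at p21 and 11.7% at p60, where the ages were apart, and ATP synthase took 11.3 and 11.4%.

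**Figure D5:**
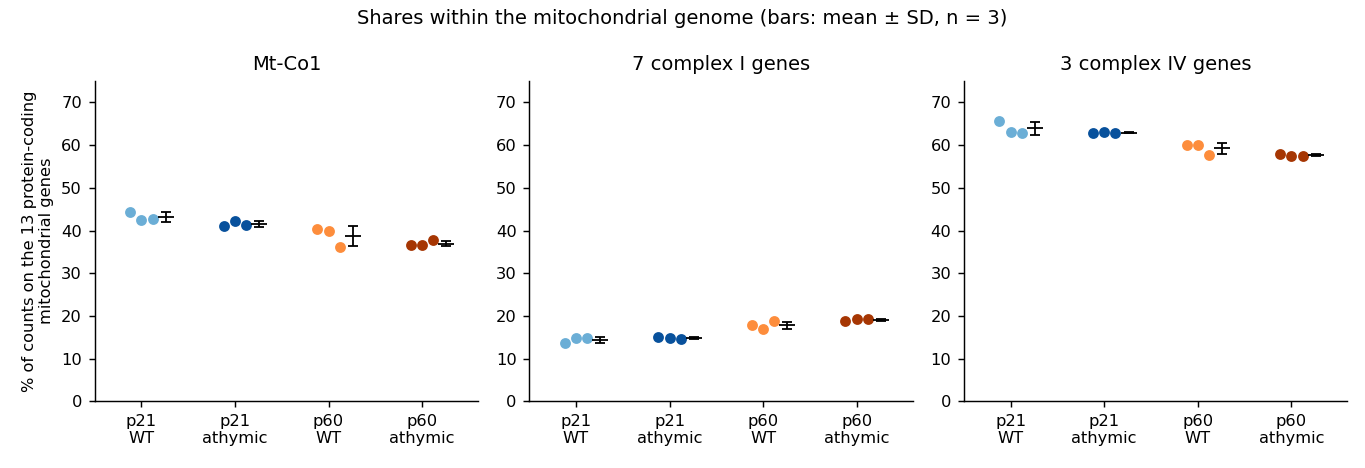
Share of the counts on the 13 protein-coding mitochondrial genes taken by Mt-Co1, by the 7 complex I genes and by the 3 complex IV genes in each library by group, with bars for the mean ± SD (n = 3). Complex I rises from between 13.6 and 15.1% at p21 to between 17.0 and 19.2% at p60, and Mt-Co1 and complex IV lie lower at p60.

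Among the protein-coding genes the share of Mt-Nd4 had the largest ratio of p60 over p21, from a mean of 0.870% to 1.29% (1.48-fold), whereas that of Mt-Nd2 gained most in percentage points. Mt-Nd2 went from 4.16 to 5.69%, Mt-Nd1 from 4.06 to 5.02%, Mt-Nd5 from 3.41 to 3.93% and Mt-Nd6 from 0.782 to 1.04%, and the ages were apart for each of these 4. Mt-Nd4l, at 0.754 and 0.889%, overlapped between the ages. Per length, Mt-Nd4 was at 0.255 ± 0.060 of Mt-Nd4l at p21 and at 0.312 ± 0.021 at p60 (SD, n = 6). The ages overlapped (0.170 to 0.305 at p21, 0.279 to 0.340 at p60), with the lowest values in p21 libraries 3 (0.170) and 6 (0.193).

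The lines gave the same set of complex I genes when each was fitted alone. In the WT line 8 of the 23 tested genes were higher and 0 lower (edgeR), where 51.4% of all tested genes passed, 25.6% higher and 25.8% lower. DESeq2 also called 0 mitochondrial genes lower in WT, where it called 3752 of all 15412 tested genes lower. Mt-Ta had an unadjusted p under 0.05 but was not called (log2 1.01, adjusted p = 0.0518), except without library 1 or 20 (adjusted p = 0.0379 to 0.0468) and on total counts (adjusted p = 0.0235). On total counts 12 of the 23 were higher and 0 lower in WT, with Mt-Ta, Mt-Atp6, Mt-Nd3 and Mt-Cyb gained, where 38.1% of all tested genes were higher and 15.4% lower. The 8 genes called with TMM scaling were Mt-Rnr1, Mt-Rnr2, Mt-Nd1, Mt-Nd2, Mt-Nd4l, Mt-Nd4, Mt-Nd5 and Mt-Nd6, with log2 fold changes from 0.29 to 0.64. Library 21 weighed most on these calls: without it 5 genes were higher and 0 lower. Of all 15649 genes tested without it, 3438 were higher and 3523 lower. Mt-Nd1 (log2 0.33 with library 21 and 0.24 without, adjusted p = 0.132), Mt-Nd4l (0.29 and 0.18, adjusted p = 0.149) and Mt-Nd4 (0.64 and 0.50, adjusted p = 0.0605) were lost. Mt-Nd1 was also lost without library 2 (log2 0.38, adjusted p = 0.0579) or library 3 (log2 0.22, adjusted p = 0.102), and Mt-Nd4l without library 1 (log2 0.22, adjusted p = 0.122) or library 2 (log2 0.31, adjusted p = 0.0793).

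In the athymic line 10 genes were higher and 1 lower, where 49.9% of all tested genes passed, 25.3% higher and 24.6% lower (edgeR). Those higher were Mt-Rnr1, the same 6 complex I genes, Mt-Cyb (log2 0.18, adjusted p = 0.00860), Mt-Ts1 (0.40, adjusted p = 0.0311) and Mt-Te (1.17, adjusted p = 0.0340), and Mt-Tn was lower (-0.63, adjusted p = 0.00958). Mt-Nd5, Mt-Te and Mt-Ts1 were each lost on leaving out any of 5 of the 6 athymic libraries (adjusted p = 0.0581 to 0.130, 0.0602 to 0.0971 and 0.0562 to 0.101), where the calls held without library 4 for Mt-Nd5 and Mt-Te and without library 5 for Mt-Ts1, and Mt-Cyb was lost without library 5 (adjusted p = 0.0715). Mt-Co1 was called lower without library 6 (log2 -0.14, adjusted p = 0.00958), and Mt-Nd3 and Mt-Tp were called higher without library 4 (adjusted p = 0.0301 and 0.00884). DESeq2 also called Mt-Tp higher. On total counts 16 genes were higher and 1 lower in this line, with Mt-Co2, Mt-Co3, Mt-Atp8, Mt-Atp6, Mt-Nd3 and Mt-Tp gained, where 38.9% of all tested genes were higher and 14.4% lower.

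Both lines thus called 7 genes higher, namely Mt-Rnr1 and 6 genes of complex I. Of all tested genes 25.6% were higher in WT and 25.3% in athymic retinas, and the share higher in both lines was not counted. Mt-Nd4 changed by a log2 of 0.64 in WT and 0.63 in athymic retinas, Mt-Nd2 by 0.49 and 0.58, Mt-Nd6 by 0.52 and 0.47, Mt-Nd1 by 0.33 and 0.45, Mt-Nd4l by 0.29 and 0.39, and Mt-Nd5 by 0.36 and 0.22. Over all 12 libraries the same 7 genes were higher in each of 23 alternative settings. Of all tested genes, single settings with the filter on low counts called from 24.4% (without libraries 4, 5, 19, 22 and 24) to 45.8% (total counts) higher. Without that filter the share was lower still, at 5066 of 24673 tested genes. The share of all genes that was higher in every setting was not counted. A further setting also required a log2 fold change of 0.5, where 5 mitochondrial genes and 18.3% of all tested genes were higher. These 5 were Mt-Rnr1, Mt-Nd2, Mt-Nd4 and the low-count tRNAs Mt-Ta and Mt-Te. Of the 7 genes above, Mt-Nd1, Mt-Nd4l, Mt-Nd5 and Mt-Nd6 lost the call there. The same 7 were also those of the 23 tested genes in which no p60 library overlapped a p21 library in scaled CPM. Of all tested genes, 19.8% were higher without overlap.

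No mitochondrial gene was called for a change with age that differed between the lines (0 of 23 by edgeR). Of all tested genes 0.00622% were called. An unadjusted p under 0.05 was found for 3 (Mt-Rnr2, Mt-Tn and Mt-Ts1), against 1494 of all 16069 tested genes. DESeq2 called 1, Mt-Rnr2, and 0.909% of all tested genes. For the complex I genes the difference of the log2 changes, athymic minus WT, lay between -0.14 (Mt-Nd5) and 0.12 (Mt-Nd1), each with an SE of 0.12 or more. Over 17 alternative settings these differences reached -0.23 (Mt-Nd5) and 0.22 (Mt-Nd1).

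Between the lines, 0 of 23 mitochondrial genes were called over both ages, with 0% of all tested genes called (edgeR). Of the 23, 0 had an unadjusted p under 0.05, against 1904 of all 16069 tested genes. DESeq2 called 0 mitochondrial genes and 263 of all 16069 tested genes. At p21, 0 of 22 tested were called, with 0% of all tested genes called (edgeR). An unadjusted p under 0.05 was found for 2 (Mt-Rnr2 and Mt-Tn), against 1936 of all 15225 tested genes. At that age DESeq2 called Mt-Rnr2 and 0.920% of all tested genes, and edgeR without the filter on low counts called Mt-Rnr2 among 33 mitochondrial genes and 1.21% of all tested genes. At p60, 0 of 23 were called, with 0.0193% of all tested genes called (edgeR). An unadjusted p under 0.05 was found for 3 (Mt-Tm, Mt-Ts1 and Mt-Atp8), against 1462 of all 15557 tested genes. DESeq2 called 0 mitochondrial genes and 106 of all 15557 tested genes at p60. Over both ages the differences of the 13 protein-coding genes, athymic over WT, lay between -0.07 (Mt-Co1) and 0.17 (Mt-Atp8) on the log2 scale. Line and labelled sex go together in these samples and cannot be told apart by the labels.

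Without libraries 4, 19 and 24, 12 of 24 tested mitochondrial genes were higher and 0 lower at p60 (edgeR), where 29.0% of all tested genes were higher and 27.3% lower. Mt-Te and Mt-Cyb lost and Mt-Nd3 and Mt-Tp gained the call, and Mt-Tn was no longer called (adjusted p = 0.127). Without libraries 4, 5 and 22, a setting chosen after seeing the data, 9 of 25 were higher and 0 lower, against 26.8 and 25.6% of all tested genes, and Mt-Atp6 (adjusted p = 0.0602), Mt-Te (0.0844), Mt-Cyb (0.0796) and Mt-Tn (0.0995) lost the call. A setting taken over from an earlier analysis of these data left out library 3 as well, although its 229 CPM of Y-chromosome genes go with its male label, and there 9 of 25 were higher and 1 (Mt-Tn) lower, against 25.4 and 24.4% of all tested genes, with Mt-Ta, Mt-Atp6 and Mt-Cyb lost.

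Without all 5 libraries that stood apart (4, 5, 19, 22 and 24), also chosen after seeing the data, 9 of 25 mitochondrial genes were higher and 0 lower (edgeR), against 24.4% of all tested genes higher and 23% lower. Mt-Ta (adjusted p = 0.0927), Mt-Te (0.175), Mt-Cyb (0.107) and Mt-Tn (0.165) lost the call. In each of the 3 settings without libraries 4 and 5 the p21 athymic group is library 6 alone, and without all 5 libraries the p60 athymic group is library 23 alone, which are then assumed to vary like the other groups. Mt-Rnr1 and the 6 complex I genes were called higher in all 4 settings.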

How the data were processed

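Total RNA of 12 whole retinas was enriched with oligo(dT) beads and sequenced as paired reads. The authors deposited 1 file of raw counts per gene for each library, with the chromosome, start, end, strand and length of each gene as further deposited columns (unit: other). The submitters' processing notes name STAR 2.5.2b, featureCounts, Subread 1.5.2, DESeq2 and the build Rnor_6.0; the strand setting and the treatment of reads that also match nuclear copies of mitochondrial DNA are not given in the sources used here, so such reads may be lost from these genes.

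Counts were joined by identifier, and no library was left out. Genes were tested with edgeR 4.0.16 in R 4.3.3 (filterByExpr with a minimum count of 10 and total of 15, TMM factors, quasi-likelihood F test, Benjamini-Hochberg adjustment over all tested genes, threshold 0.05), with line as a covariate over all 12 libraries, within each line, for the interaction and between lines. Standard errors were derived from the F statistic, and 95% intervals from the t distribution with edgeR's total (residual and prior) degrees of freedom. Alternatives were DESeq2 1.42.0, RLE factors, total counts, nuclear genes only for scaling, no filter, other models and leaving out libraries, where 2 sets of libraries were chosen after seeing the data. Each test was checked on simulated data. Labels give separate samples without naming animals, so p-values measure only the spread between these samples.

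All 37 genes were accounted for: protein-coding, rRNA and tested tRNA genes are named, and other tRNAs are given by range. The genes and groups were chosen with earlier results of these data known. Of the identifiers, 0 matched the reference table, so nuclear respiratory genes, cell type markers and sequences were not analysed here, and the labelled tissue was not checked against markers.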

Additional observations from a re-analysis of the deposited data

Results flagged for a closer look

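Among 44 measures of the mitochondrial genome, each tested in the 6 libraries of either age (88 groups), 5 groups had their highest or lowest library set apart beyond Dixon's critical value, where chance gives about 1 in 20. Mt-Cyb stood at 3375 scaled CPM in p21 library 3, against 4477 to 5082 in the other p21 libraries. In the same library Mt-Co3 took 9.39% of the protein-coding mitochondrial counts, against 10.8 to 11.5%. In p21 library 1, complex I took 13.6% of these counts, against 14.6 to 15.1%, and complex IV took 65.7%, against 62.8 to 63.2%. In p60 library 19, Mt-Nd5 took 4.19%, against 3.83 to 3.93% in the other p60 libraries.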

How the results depend on the processing

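Over all 12 libraries 13 of 23 mitochondrial genes were called with age, against 62.0% of all tested genes. Leaving out 1 library gave 9 to 13 calls, against 9558 of 16317 (without library 24) to 9822 of 16356 tested genes (without library 3). When a log2 fold change of 0.5 was also required, 5 of 23 were called (5 higher and 0 lower). At that setting 5084 of all 16069 tested genes were called in either direction, and 18.3% were higher. In the WT line the 8 calls became 5 to 9 on leaving out 1 library, the lowest without p60 library 21. Of all tested genes 7916 of 15412 were called in WT, and 6548 of 15664 (without library 2) to 7556 of 15729 (without library 19). On total counts 12 of 23 were called in WT (12 higher and 0 lower, against 38.1 and 15.4% of all tested genes). In the athymic line the 11 calls became 8 to 12 on leaving out 1 library. There 7740 of all 15507 tested genes were called, and 6484 of 15753 (without library 22) to 7293 of 15869 (without library 24). On total counts 17 of 23 were called in the athymic line (16 higher and 1 lower, against 38.9 and 14.4% of all tested genes). DESeq2 called 1 gene (Mt-Rnr2) for the interaction and 1 between the lines at p21, where running without a filter also called 1, against 0 in the reported tests and 0.909, 0.920 and 1.21% of all genes tested in these settings. The log2 ratio of the mitochondrial share of counts, p60 over p21, was 0.28 on all counts, 0.30 on nuclear counts and 0.094 on the TMM-scaled library size. No result reversed while called. The cause of these differences was not tested. By construction, leaving out a library leaves fewer samples and a fold requirement removes small changes. Of the tRNAs, 14 stayed below the filter on low counts. Lists of nuclear respiratory genes and cell type markers were not analysed under any setting, since no identifier matched the reference table. No paired analysis was possible because the libraries carry different numbers in every group.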
